A study of Mus musculus with 6 samples.

Results

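Transcripts of Notch ligands, receptors and targets were measured in C2AS12, a mouse myoblast line of C2 origin, with 6 expression arrays. The genes were the ligands Dll1, Jag1 and Jag2, the receptors Notch1, Notch2 and Notch3, the targets Hes1 and Hey1, and Lfng, which modifies the receptors. Probe sets were taken where the array's annotation gave 1 of these 9 symbols and no other, which found 11 of 12422 probe sets for 8 of the 8251 genes so annotated. No probe set was annotated to Jag1 alone. The cells carried adenovirus for p300, an acetyltransferase that works as a transcriptional coactivator, in 3 treatments. One treatment was wild-type p300 alone, another added doxycycline to wild-type p300, and the last was mutant p300; adenovirus infection was common to all of them. RNA was taken from every treatment at 0 h and again at 24 h of low-serum differentiation medium, giving 6 groups of 1 array. Time and the change of medium cannot be told apart. Per the submitters, cells survived with wild-type p300 and died by apoptosis with doxycycline or mutant p300. What the mutation is, and what doxycycline does in these cells, is not stated in the labels, and C2AS12 is a single line.

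Notch is a receptor system between neighbouring cells. A ligand of the Delta or Jagged family on one cell binds a Notch receptor on the next, and the receptor is then cut by an ADAM protease and by the gamma-secretase complex. The freed intracellular domain enters the nucleus and binds the DNA-binding protein RBPJ, with Mastermind proteins and p300 or related acetyltransferases as coactivators, and genes of the Hes and Hey families are switched on. Fringe enzymes such as Lfng add sugars to the receptors and alter which ligands activate them. In the muscle lineage Notch activity is known for holding myoblasts back from differentiation.

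The start-site regions of Dll1 and Notch1, the members whose signal was called higher at 24 h, are shown because members of this pathway can themselves be regulated by E-box-binding myogenic factors or by RBPJ. That of Lfng is shown because it was the only one of the 8 member regions found to hold the RBPJ core. The sequences are the 250 bases before the start site in RefSeq, build GRCm38.p6, read on the strand of the gene, and are not measurements. Capitals mark TGGGAA, the core bound by RBPJ, and CANNTG, the E-box, on either strand.
Dll1, chr17:15376933-15377182, minus strand: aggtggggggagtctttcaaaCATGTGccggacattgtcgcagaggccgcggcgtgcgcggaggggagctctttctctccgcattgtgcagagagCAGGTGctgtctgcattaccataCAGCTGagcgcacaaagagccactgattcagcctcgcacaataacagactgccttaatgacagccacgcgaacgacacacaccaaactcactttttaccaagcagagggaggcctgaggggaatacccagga
Notch1, chr2:26503823-26504072, minus strand: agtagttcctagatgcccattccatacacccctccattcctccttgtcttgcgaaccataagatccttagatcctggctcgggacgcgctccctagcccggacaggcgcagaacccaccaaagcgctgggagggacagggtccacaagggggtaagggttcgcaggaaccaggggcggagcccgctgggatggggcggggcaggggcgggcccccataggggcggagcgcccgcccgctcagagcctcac
Lfng, chr5:140607091-140607340, plus strand: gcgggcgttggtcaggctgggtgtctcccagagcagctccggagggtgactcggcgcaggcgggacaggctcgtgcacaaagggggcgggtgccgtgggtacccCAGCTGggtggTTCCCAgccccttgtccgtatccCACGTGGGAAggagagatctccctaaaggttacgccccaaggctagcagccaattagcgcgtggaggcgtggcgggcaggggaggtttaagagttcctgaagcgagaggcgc
The Dll1 region shown held 3 E-boxes, which began 229, 155 and 132 bases before the start, and no RBPJ core. A second annotated start of Dll1, which is not shown, had only 1 E-box, 220 bases before it. The Notch1 region held neither motif, and those of Notch2, Notch3 and Jag2 held neither as well. The Lfng region held 2 copies of the RBPJ core in opposite orientation, 135 and 108 bases before the start. It also held 2 E-boxes, 146 and 112 bases before it, and the nearer one overlapped the second RBPJ core. The Jag1 region held 1 E-box. Across 32851 such regions in the mouse annotation, 21.6% held the RBPJ core and 66.2% held at least 1 E-box. The share with 3 E-boxes was not counted. The table of regions held 7 of the 9 genes and had no entry for Hes1 and Hey1.

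The signals are linear intensities as deposited, with an array median of 68.7 to 78.0. A floor of 16.4, the 25th percentile of the signals, was applied before log2 was taken, and probe sets with a mean signal of at least 75.2 were tested, 6212 in all. Precision is limited by the number of arrays, and p-values reflect only the spread among these arrays, which may be technical. In the time test that spread is the one of the change over the treatments, so differences between treatments are part of it. Of 10 myoblast markers, all had a probe set and 9 read above the floor on all 6 arrays, and their summed signal was 2523.8 to 2912.7 at 0 h and 3672.5 to 4796.2 at 24 h. Of 10 endothelial markers with a probe set, Cdh5 and Tie1 were under the floor on all 6 arrays, and Eng (178.3 to 250.3), Pecam1 (36.9 to 70.8), Flt1 and Sox18 were above it on all. The summed signal was 384.3 to 511.2 at 0 h and 354.1 to 566.9 at 24 h. Tek, which marks endothelium, read 116.3 with wild-type p300 at 24 h and 2.8 to 19.5 on the other 5 arrays. Of 10 leukocyte markers, Ptprc, Adgre1, Lyz2, Itgam and Cd3e were under the floor on all 6 arrays, and Cd14 (322.4 to 416.6), Cd68 (103.9 to 173.0), Csf1r, Fcgr1 and Cd79a were above it on all, with sums of 725.8 to 803.3 at 0 h and 581.9 to 698.1 at 24 h. Of 6 smooth muscle markers, Myh11 and Cnn1 were under it on all 6 arrays, while Acta2, Tagln, Smtn and Des, which skeletal muscle also expresses in part, were above it on all. Their summed signal was 2545.1 to 3164.2 at 0 h and 3380.7 to 4615.9 at 24 h, and Acta2, which makes up most of it, rose, with 1760.5 to 2416.5 at 0 h and 2486.3 to 3753.2 at 24 h (limma adjusted p = 0.0055). Of 5 adipocyte markers with a probe set, Retn was under the floor on all 6 arrays. Lep (161 to 274.1), Adipoq and Pparg were above it on all. The adipocyte sum was 279.3 to 381.4 at 0 h and 265.9 to 352.9 at 24 h. Of 7 neural markers with a probe set, Map2, Nefm and Snap25 were under the floor on all 6 arrays. Gfap and Mbp were above it on all. The neural sum was 125.1 to 157.5 at 0 h and 152.4 to 182.3 at 24 h. The ratio of 3' to 5' signal of the actin control, a sign of RNA quality, was 1.45 and 1.49 with doxycycline and mutant p300 at 24 h and 1.30 to 1.34 on the other 4 arrays. That of the Gapdh control was 0.859 with doxycycline and 0.905 with mutant p300 at 24 h, beside 0.855 to 0.875 on the others. The part of these differences in the results below was not tested. In bulk RNA, fewer cells that make a transcript and less of it in each cell cannot be told apart.

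Of the 11 probe sets, 5, 1 each for Dll1, Notch1, Notch2, Notch3 and Hes1, passed the filter, and the 6 that did not are described by value. Between 0 h and 24 h of differentiation medium, Dll1 and Notch1 were called higher, on 1 probe set each. Notch3 just missed the threshold, and Notch2 and Hes1 were not called. The Notch1 call was lost under several other settings, and the second Notch1 probe set showed no common direction. Limma with treatment as a block, adjusted by Benjamini-Hochberg over all probe sets tested and called at an adjusted p under 0.05, called 7.24% of the 6212 higher and 9% lower at 24 h. Both directions together came to 16.2%. Of the 5 member probe sets tested, 2 were called higher and 0 lower. Dll1 passed the filter only through its signals at 24 h, since its signals at 0 h all lay under 75.2, so the share of members called supports nothing by itself.

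Dll1, a Delta-family ligand, read 56.5, 63.5 and 60.0 at 0 h (wild-type p300, then doxycycline, then mutant p300) and 120.1, 133.4 and 155.1 at 24 h. Every array at 24 h was above every array at 0 h, with nothing between 63.5 and 120.1. The log2 rise averaged 1.18 ± 0.17 over the 3 treatments (SD, n = 3), a mean 2.26-fold, with a limma adjusted p of 0.00429 and a 95% interval of 0.74 to 1.61. By treatment it was 1.09 for wild-type p300, 1.07 for doxycycline and 1.37 for mutant p300, and it exceeded that of 99.4% of the probe sets tested. The second probe set of Dll1, whose name ends in _r_at for a relaxed probe design, read 1.6 to 3.6, under the floor on all 6 arrays, and so carries no measured change. Without the mutant array at 24 h the change was 1.08 and the adjusted p was 0.0552, and with no filter on dim probe sets it was 0.12. With any other single array left out the adjusted p lay between 0.000719 and 0.0325.

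Jag2, a ligand of the Jagged family, read between 5.2 and 11.7, under the floor on all 6 arrays. The signals with mutant p300, 11.5 and 11.7, and with wild-type p300, 8.5 and 9.8, have no order at that level. The only ligand in the list with a measured change was therefore Dll1.

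**Figure D1:**
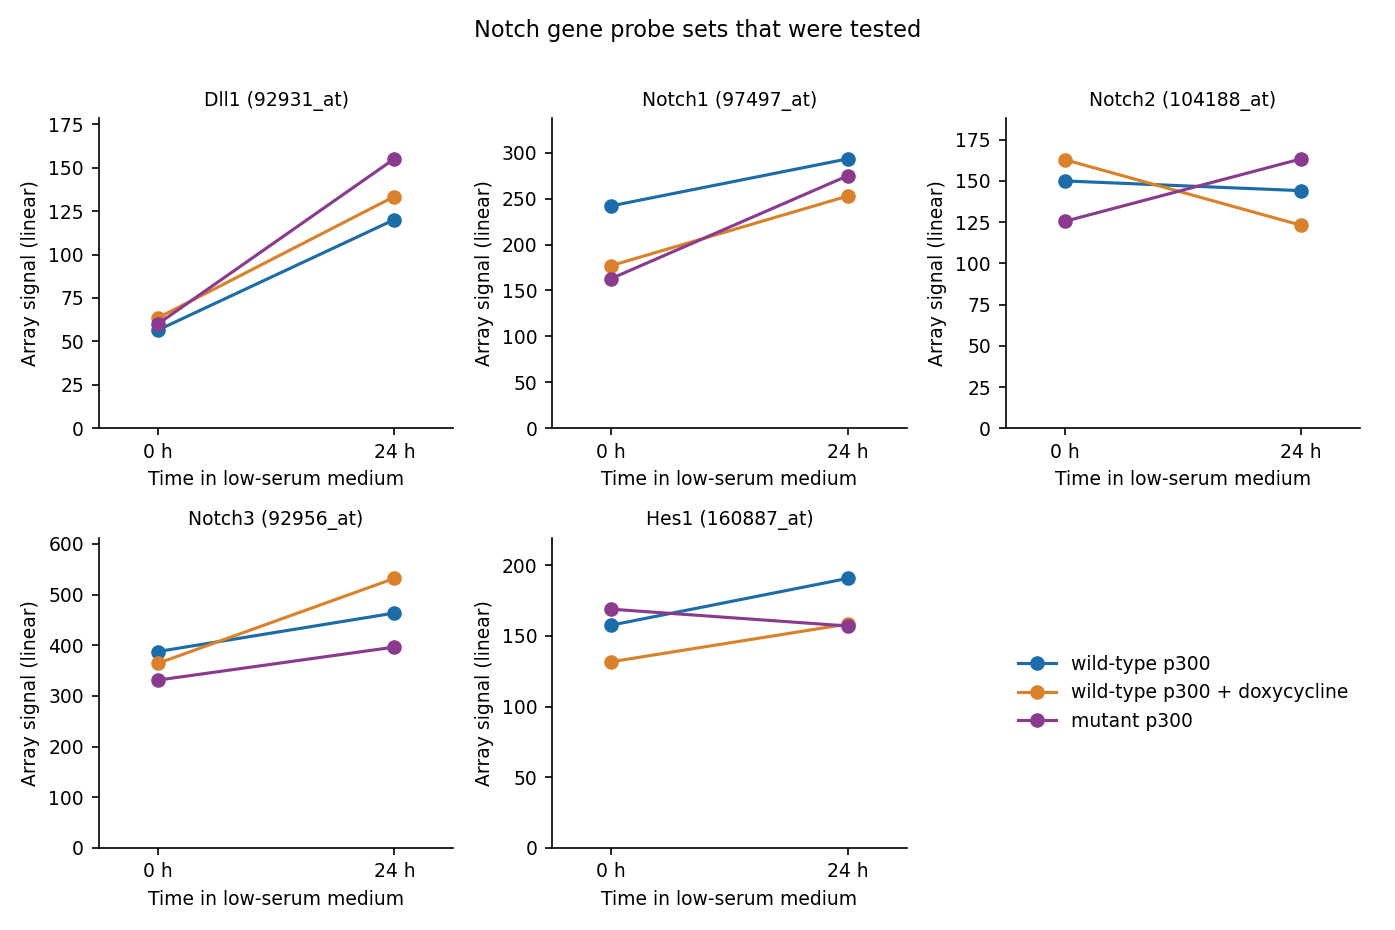
Linear array signal of the 5 tested probe sets at 0 h and 24 h, with 1 point per array and 1 line per treatment; there are no replicate arrays and so no error bars. The Dll1 lines run from 56.5 to 63.5 at 0 h up to 120.1 to 155.1 at 24 h, while the Notch2 and Hes1 lines cross.

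Notch1 encodes the receptor most studied in muscle precursors. Its main probe set read 242.1, 177.1 and 163.0 at 0 h in the same order of treatments, and 293.3, 252.8 and 274.9 at 24 h. The 3 arrays at 24 h were all above those at 0 h, with the wild-type array at 0 h just under the doxycycline array at 24 h. The log2 rise was 0.51 ± 0.24 (SD, n = 3), or 1.43-fold, with a limma adjusted p of 0.0323 and a 95% interval of 0.21 to 0.81. It was smallest with wild-type p300, at 0.28, followed by 0.51 with doxycycline and 0.75 with mutant p300. The call was lost without either doxycycline array (adjusted p = 0.108 and 0.116) and without either mutant array (0.195 and 0.201), with scaling to spike-in controls (0.282), without the filter (0.24), without a variance trend (0.06) and without treatment as a block (0.109). The second probe set of Notch1, also of the _r_at kind, read 55.9, 37.7 and 37.8 at 0 h and 58.9, 54.7 and 23.0 at 24 h. It rose with doxycycline by 0.54 and fell by 0.72 with mutant p300, so the probe sets of this gene disagreed on the mutant array at 24 h. With the filter relaxed to the 25th percentile of mean signal its change was -0.03, with a limma adjusted p of 0.966.

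Notch3, a receptor also expressed in muscle precursors, read 387.6, 364.3 and 331.2 at 0 h and 463.6, 532.1 and 396.4 at 24 h. The lowest array at 24 h, mutant p300, stood just above the highest at 0 h, wild-type p300. The log2 difference was 0.35 ± 0.17 (SD, n = 3), or 1.28-fold, with a limma adjusted p of 0.0537 and a 95% interval of 0.11 to 0.60. The adjusted p was 0.0219 without the wild-type array at 0 h and 0.0274 without that at 24 h. All arrays at 24 h above all arrays at 0 h, as for Dll1, Notch1 and Notch3, was found for 12.7% of the 6212 probe sets.

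Notch2, the third receptor, showed no common direction. Its brighter probe set read 149.9, 162.8 and 125.4 at 0 h and 144.0, 123.0 and 163.3 at 24 h, so that the 2 times overlapped fully. Its mean log2 difference was -0.03 ± 0.39 (SD, n = 3; limma adjusted p = 0.942), with a 95% interval of -0.44 to 0.38. The dimmer probe set read 24.9, 98.7 and 24.5 at 0 h and 67.6, 44.1 and 92.4 at 24 h. It was higher at 24 h in wild-type and mutant cells, by 1.44 and 1.92, and lower by 1.16 with doxycycline, a mean of 0.73 ± 1.66 (SD, n = 3). It failed the filter, and with the relaxed filter its limma adjusted p was 0.466. On both probe sets the highest pair of arrays was doxycycline at 0 h and mutant p300 at 24 h. The highest array was 4.03-fold above the lowest on the dim probe set and 1.33-fold on the bright one.

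Hes1, a repressor of the basic helix-loop-helix kind and a direct Notch target in many cell types, read 157.6, 131.7 and 168.9 at 0 h and 190.7, 158.4 and 157.0 at 24 h. It was higher by 0.28 and 0.27 with wild-type p300 and doxycycline and lower by 0.11 with mutant p300. The mean was 0.15 ± 0.22 (SD, n = 3), with a limma adjusted p of 0.546 and a 95% interval of -0.19 to 0.48. That interval is not adjusted for the number of probe sets, and with single arrays left out the mean lay between 0.08 and 0.27. Hey1, a related repressor and target, read 48.9, 41.2 and 76.9 at 0 h and 49.7, 58.4 and 68.0 at 24 h. The mutant arrays were the highest at both times and the times overlapped. Its mean difference was 0.12 ± 0.35 (SD, n = 3), it failed the filter on mean signal, and its limma adjusted p with the relaxed filter was 0.83. Lfng, the Fringe glycosyltransferase, read 10.3, 14.4 and 25.6 at 0 h and 19.0, 13.8 and 12.3 at 24 h, with 4 of 6 arrays under the floor. Its values therefore bear on no change.

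**Figure D2:**
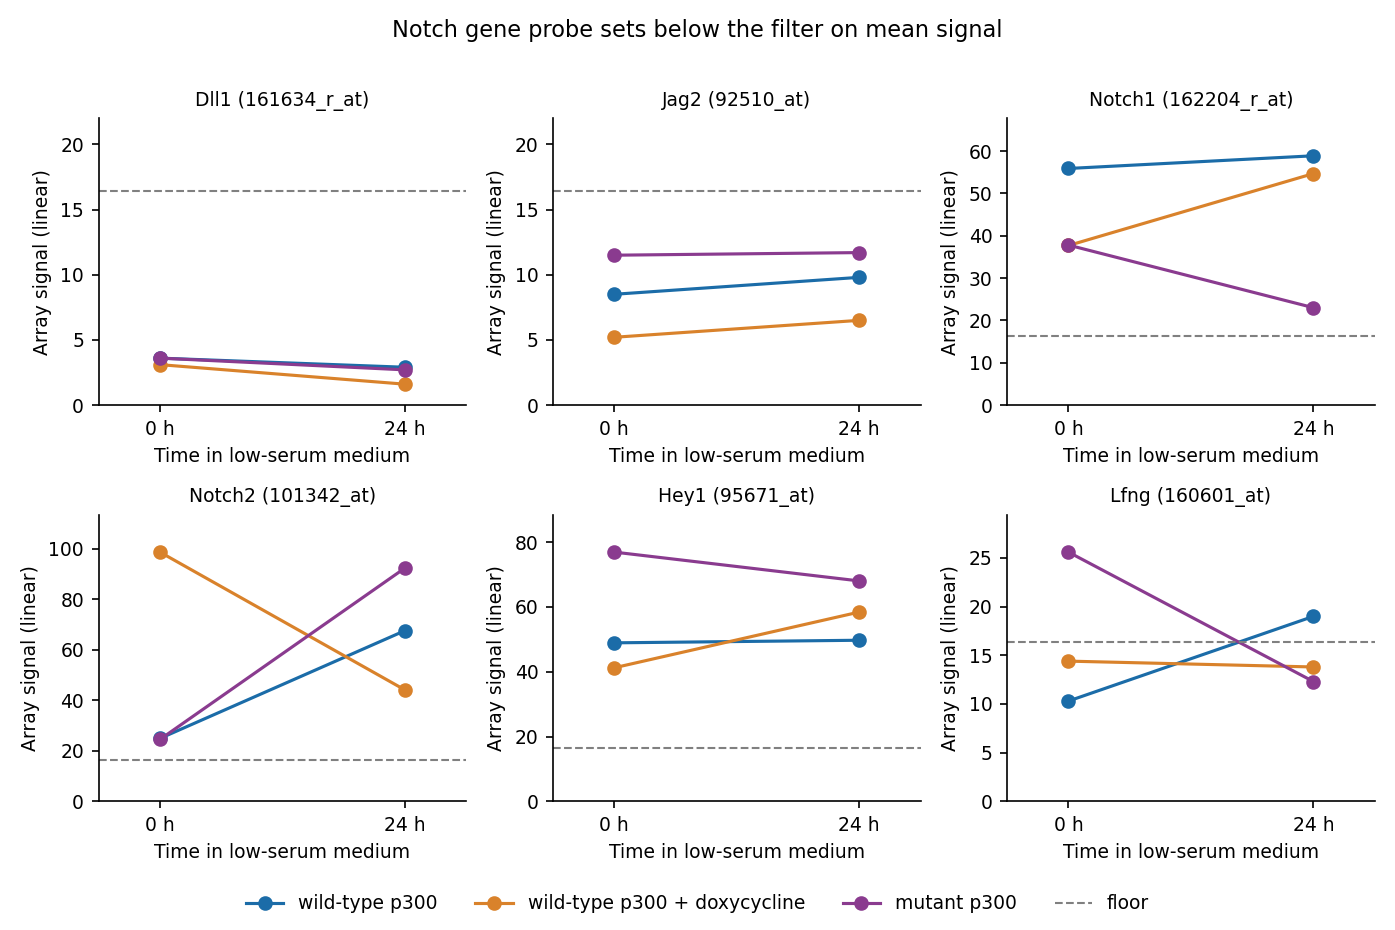
Linear array signal of the 6 probe sets that failed the filter on mean signal, by time and treatment, with 1 array per point; the dashed line is the floor at 16.4. The second Dll1 probe set and Jag2 lie under the floor on every array, and the dim Notch2 probe set moves in opposite directions, up with wild-type and mutant p300 and down from 98.7 to 44.1 with doxycycline.

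The time changes were thus unequal among the members. Within each treatment the log2 change of Dll1 exceeded that of Notch1 by 0.56 to 0.81, that of Notch3 by 0.52 to 1.11, that of Hes1 by 0.80 to 1.48 and that of Notch2 by 0.99 to 1.48. These gaps are differences of changes within a treatment and do not compare levels between genes, and they were not tested. Dll1 passed the filter only through its signals at 24 h, which favours a rise, so its gaps support nothing by themselves. In the ranking of all tested probe sets by time change, Notch1 stood above 93.7%, Notch3 above 87.6%, Hes1 above 69.3% and Notch2 above 45.4%.

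**Figure D3:**
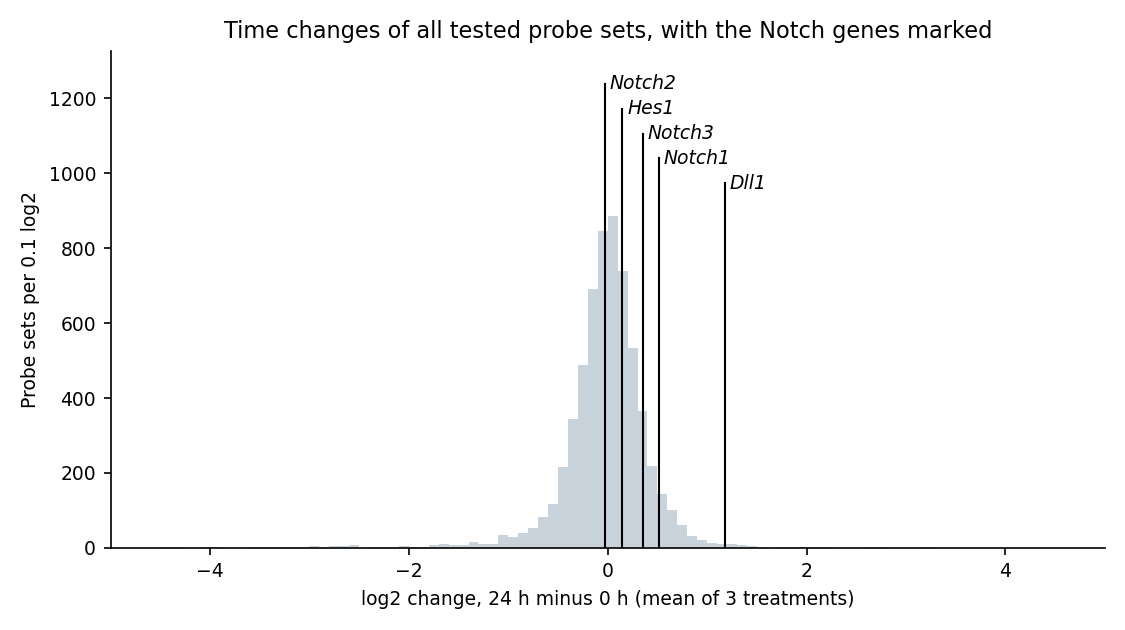
Histogram of the log2 change from 0 h to 24 h (mean of the 3 treatments) for the 6212 tested probe sets, in bins of 0.1, with vertical lines for the 5 tested Notch members. Dll1, at 1.18, lies in the right tail, but it passed the filter only through its signals at 24 h. Notch2, at -0.03, lies at the centre.

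Other genes of the pathway were taken from a list of 82, of which 49 had a probe set and 37 passed the filter. Of these 37, limma called 6 higher (16.2%) and 1 lower (2.70%) at 24 h, beside 7.24% and 9% of all probe sets tested, and 30 were not called. Their median log2 change was 0.08, beside 0.0049 over all probe sets tested. The list was chosen with earlier results of these data known, so these shares and this median support nothing by themselves. The genes called were cofactors and targets, with Mfap5, a microfibril protein, the only one listed among the ligands. Of the genes tested, 0 of 5 proteases and gamma-secretase genes and 0 of 10 genes of endocytosis and turnover were called, beside 16.2% of all probe sets, and with so few genes this says nothing particular to them. These counts hold for the brightest probe set of each gene. For Numb, of the turnover genes, another tested probe set changed by 0.45 ± 0.20 (SD, n = 3), beside -0.0035 ± 0.29 on the brightest. For Bcl2, a listed target, another changed by 0.65 ± 0.36, beside 0.08 ± 0.20.

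Tle1, a Groucho corepressor that Hes proteins recruit, read 275.2, 218.7 and 213.2 at 0 h and 520.6, 418.2 and 454.9 at 24 h. It rose in all 3 treatments by 0.98 ± 0.10 (SD, n = 3; limma adjusted p = 0.000552). The p300 paralog Crebbp rose by 0.59 ± 0.19 (limma adjusted p = 0.0167) and Kat2b, an acetyltransferase that also joins Notch complexes, by 0.52 ± 0.10 (0.00945). A second, dim probe set of Kat2b read 31.4 to 50.8 on all arrays. Hes6, a relative of Hes1 that opposes it and favours myogenic differentiation, read 186.2, 168.5 and 179.4 at 0 h and 270.7, 243.7 and 266.5 at 24 h. Its rise of 0.55 ± 0.02 (SD, n = 3; limma adjusted p = 0.0147) was nearly equal in the 3 treatments.

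Cdkn1a, which encodes the cell cycle inhibitor p21, rose by 0.65 ± 0.24 (limma adjusted p = 0.00539), and Mfap5 rose by 0.998 ± 0.48 (0.0106), most with wild-type p300. A second probe set of Mfap5 had a change of 0.19 ± 0.28. Ccnd1, which encodes cyclin D1, fell by 0.68 ± 0.41 (0.018). Rbpj, the DNA-binding partner of all Notch receptors, read 129.8, 112.8 and 101.5 at 0 h and 120.6, 92.0 and 111.3 at 24 h and was not called (limma adjusted p = 0.777). Adam17, a protease that can cut Notch, failed the filter and read 20.7 to 27. The calls of these 7 genes were open to the choice of arrays. Without the mutant array at 24 h only Tle1 was called, without that at 0 h 3 were, and without either doxycycline array 4 were. Scaling to spike-in controls kept Mfap5, Tle1 and Ccnd1, a fit without treatment as a block kept Tle1, Hes6 and Cdkn1a, a fit without the variance trend lost Ccnd1, and without the filter 0 of the 7 were called.

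Among myogenic genes measured in the same cells, Myog, a factor that drives terminal differentiation, read 40.0, 63.5 and 37.6 at 0 h and 177.3, 296.4 and 175.7 at 24 h. It rose by 2.20 ± 0.04 (SD, n = 3; limma adjusted p = 0.000119), higher at 24 h in all 3 treatments. Like Dll1 it passed the filter only through its signals at 24 h, and with no filter its adjusted p was 0.083. Myod1 and Myf5, the determination factors, were not called (limma adjusted p = 0.785 and 0.618). Id1, Id2 and Id3, which block myogenic factors, had log2 changes of -1.21, -1.76 and -0.84 (limma adjusted p = 0.000295, 0.000319 and 0.00156). All 3 arrays at 24 h were below those at 0 h for each, as for 15.5% of all probe sets tested.

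**Figure D4:**
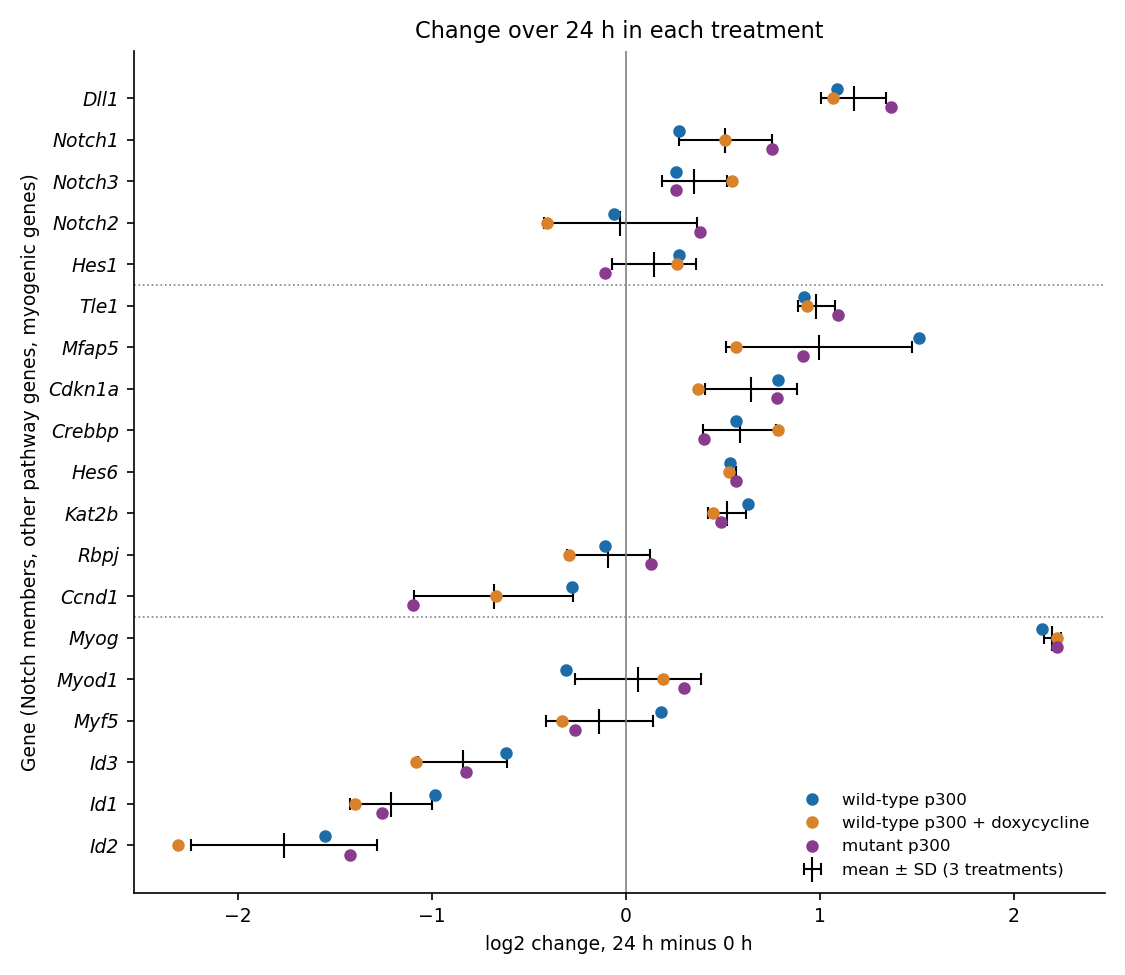
log2 change from 0 h to 24 h in each treatment (coloured points) with the mean and SD over the 3 treatments (black) for the tested Notch members, 8 other pathway genes and 6 myogenic genes, in blocks from top to bottom. Dll1 lies at 1.07 to 1.37 and Hes6 near 0.55, and Hes1 and Notch2 spread to both sides of 0; scaling to spike-in controls moves the median of all probe sets from about 0 to -0.12.

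Some genes outside the pathway followed nearly the same course over the 6 arrays, as Pearson correlations of log2 signal among 994 probe sets that varied at least 2-fold. For Dll1 these were Trp53inp2 (r = 0.999), Nrbp2 (0.984) and Map1lc3a (0.981). Trp53inp2, a protein of autophagy, read 416.8, 473.7 and 452.6 at 0 h and 818.8, 850.3 and 969.0 at 24 h, and Map1lc3a encodes an autophagosome protein. For Notch1 they were Mnt (0.976), Adam19 (0.975) and Cd82 (0.97), and for Notch3 Cdip1 (0.977), Sh3bp5 (0.972) and Brd1 (0.97). With 6 arrays that all share the step from 0 h to 24 h, 58 of the 994 reached 0.9 with Dll1, 24 with Notch1 and 34 with Notch3, and these values describe the arrays only.

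Comparing wild-type p300 with the mean of both other treatments asked whether Notch genes went with survival or death. None of the 5 tested members was called in any of the outcome comparisons by limma. Over both times, 0.531% of all tested probe sets were called and 0 of the 5 members tested. At 24 h the share was 0.773%, and at 0 h it was 0%, with 161 probe sets higher and 101 lower at an unadjusted p under 0.05. Among the members, the count at an unadjusted p under 0.05 was 1 over both times, 1 at 0 h and 0 at 24 h, beside 13.7%, 4.22% and 11.5% of all probe sets tested. These tests share the wild-type arrays, and the spread at a single time comes from the doxycycline and mutant arrays alone. The test over both times takes the 0 h and 24 h arrays of a treatment as independent, though survival has only 1 treatment.

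Notch1 was higher with wild-type p300 than with both other treatments at both times on both probe sets, a position that 14.6% of tested probe sets had. On the main probe set the log2 difference was 0.51 at 0 h (limma adjusted p = 0.999; 95% interval 0.04 to 0.98) and 0.15 at 24 h (0.845; -0.32 to 0.63). Over both times it was 0.33, with a limma adjusted p of 0.356 and an interval of 0.0037 to 0.66. That interval takes the 0 h and 24 h arrays of a treatment as independent. The second probe set had differences of 0.57 and 0.73 at 0 h and 24 h, with limma adjusted p = 1 and 0.775 in the relaxed fit.

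Dll1 was lowest with wild-type p300 at both times, as 20.4% of tested probe sets were. The difference was -0.13 at 0 h and -0.26 at 24 h (limma adjusted p = 0.999 and 0.83), the latter turning to 0.10 with scaling to spike-in controls, and the interval at 24 h ran from -1.01 to 0.49. For Hes1 the wild-type array at 24 h was the highest of the 6, with a difference of 0.27 (limma adjusted p = 0.763; 95% interval -0.31 to 0.86), while at 0 h the mutant array was above it. Notch2 and Notch3 differed by 0.02 and 0.01 at 24 h, with intervals of -0.65 to 0.69 and -0.48 to 0.51. With scaling to spike-in controls, which moved the median of all probe sets at 24 h to 0.32, the differences at 24 h were 0.52 for Notch1, 0.39 for Notch2, 0.38 for Notch3 and 0.64 for Hes1, none of them called. The intervals take the spread of the lone wild-type array from the other arrays.

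Whether the change over time differed between surviving and dying cells was tested as the interaction. It was not called for any of the 5 members, and limma called 0% of the 6212 probe sets, with 105 higher and 92 lower (3.17%) at an unadjusted p under 0.05 and 0 members among them. The interaction of Dll1 was -0.13, with a 95% interval of -1.20 to 0.93, and that of Notch1 was -0.36, with an interval of -1.03 to 0.31; with scaling to spike-in controls both turned positive (0.28 and 0.054).

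**Figure D5:**
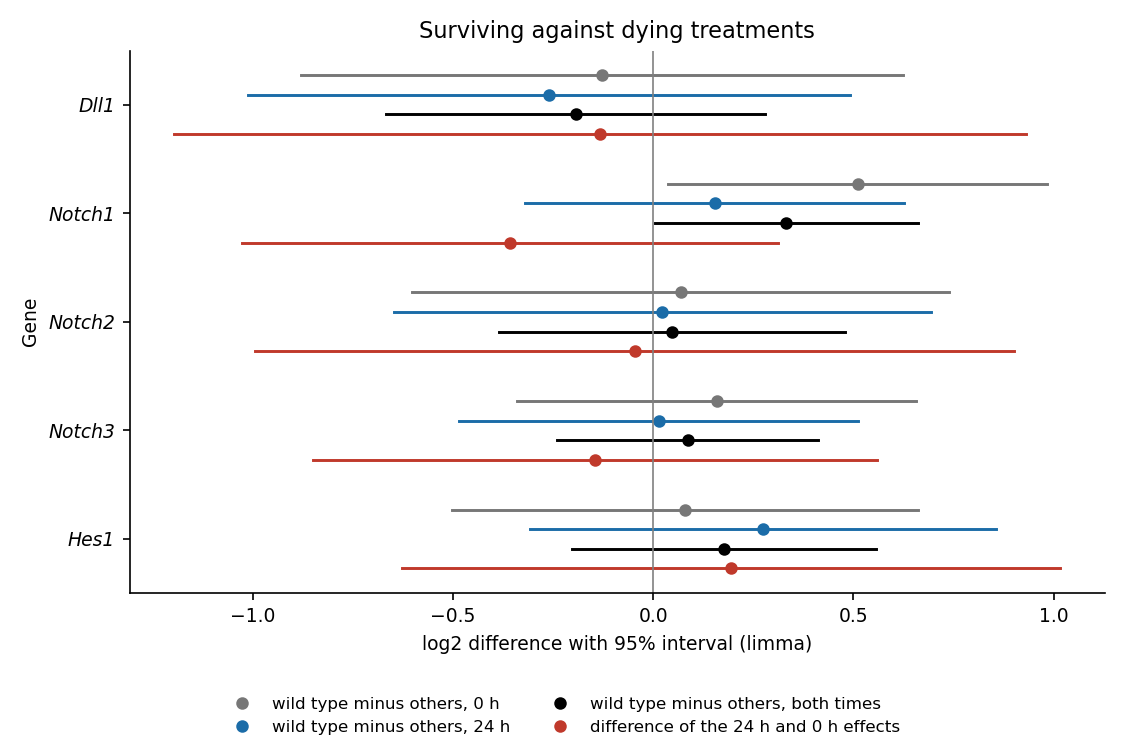
log2 difference between wild-type p300 and the mean of the doxycycline and mutant treatments for the 5 tested members, at 0 h, at 24 h, over both times, and the difference of the 24 h and 0 h effects, with 95% intervals from limma. No member was called in any of them. The intervals of Notch1 at 0 h, 0.04 to 0.98, and over both times lie above 0 before adjustment. Intervals over both times take the 0 h and 24 h arrays of a treatment as independent.

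The doxycycline and mutant treatments, which share the outcome, were also set side by side. At 24 h the log2 difference of doxycycline from mutant p300 was 0.42 for Notch3, -0.41 for Notch2, -0.22 for Dll1, -0.12 for Notch1 and 0.01 for Hes1. At 0 h it was -0.90 for Hey1, whose mutant array read 76.9 against 41.2 with doxycycline, -0.36 for Hes1 and 0.38 for the bright Notch2 probe set, the opposite sign to 24 h. The dim Notch2 probe set turned likewise, from 2.01 at 0 h to -1.07 at 24 h. These differences within a time were not tested. Of the 37 other pathway genes, 0 were called in each of the 4 outcome and interaction tests by limma, with 8 over both times, 5 at 24 h, 2 at 0 h and 1 in the interaction at an unadjusted p under 0.05, beside 13.7%, 11.5%, 4.22% and 3.17% of all probe sets tested.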

How the data were processed

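The deposited values are linear array intensities for 12488 probe sets on 6 arrays, 1 for each of 3 treatments at 2 times; the submitters' processing notes name MAS5, and for its version and settings nothing is given in the sources used here. The 66 control probe sets were left out. Symbols came from the platform annotation (10833 probe sets with 1 symbol, 396 with several, 1193 with none), updated by gene ID through RefSeq GRCm38.p6 for 10817. Signals under the 25th percentile (16.4) were set to it, log2 was taken, and 6212 probe sets whose mean signal reached the median over probe sets (75.2) entered tests with limma 3.58.1 in R 4.3.3 (lmFit, eBayes with a variance trend, 2-sided), with Benjamini-Hochberg adjustment over all of them. The time effect had treatment as a block (2 residual degrees of freedom), the outcome effect over both times had time as a term (3), and the outcome effects at each time and their interaction came from 1 mean for each outcome and time (2), which assumes that a single wild-type array varies as the other arrays do. Scripts were tested on simulated data. Promoter regions came from the RefSeq table of GRCm38.p6. Named genes were every member probe set, other pathway genes called in any test, Rbpj, Adam17, Myog, Myod1, Myf5, Id1 to Id3, and for the 3 tested members of largest range the 3 genes of highest correlation; 1 further gene of the rule is not reported here. A listed gene with several probe sets was represented by its brightest. The members and lists were chosen with earlier results of these data known. The closing section gives the effect of 14 other settings: filters, floors, scaling, variance model, block and each array left out. Figures were drawn with matplotlib 3.10.9.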

Additional observations from a re-analysis of the deposited data

How the results depend on the processing

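Each result was recomputed with other filters, floors, scalings and variance models and with each array left out. The count of Notch member probe sets called over time, 2, was 0 with no filter, 1 with scaling to the spike-in controls, 1 without a variance trend and 1 without treatment as a block, and it ran from 0 to 3 when single arrays were left out. It was 2 with the filter at the 25th percentile, the floor at the 10th percentile, log2(signal + 16) and quantile normalization. In the outcome and interaction tests it was 0 under every setting that could be fitted; without a wild-type array the outcome effect at that time and the interaction could not be. Over all probe sets, the 1009 called over time became 0 with no filter, 619 with spike-in scaling, 514 without the block and 479 to 1283 with single arrays left out, and the 48 called at 24 h became 0 with the filter at the 25th percentile, 11 without the trend, 192 with no filter, 426 with spike-in scaling and 45 to 351 with single arrays left out. The 33 called over both times became 1 without the trend, 10 with no filter, 237 with spike-in scaling and 0 to 50 with single arrays left out; the 0 called at 0 h became 126 with no filter, 5 with spike-in scaling and 0 to 38 with single arrays left out, and the 0 of the interaction 245, 1 and 6 to 43. Spike-in scaling moved the median of all probe sets to -0.12 over time, 0.32 for the outcome at 24 h and 0.38 for the interaction. Under it the sign turned for Dll1 at 24 h (0.10), for the interactions of Dll1 (0.28), Notch1 (0.054), Notch2 (0.37) and Notch3 (0.27), and for Myod1 over time (-0.058), all uncalled. With single arrays left out the sign varied over time for Notch2 (-0.23 to 0.16), Rbpj (-0.20 to 0.013) and Myod1 (-0.056 to 0.25), for the outcome of Notch2 over both times (-0.038 to 0.14), at 24 h (-0.18 to 0.23) and at 0 h (-0.12 to 0.26), of Notch3 at 24 h (-0.20 to 0.23) and of Hes1 at 0 h (-0.10 to 0.26), and for the interactions of Notch2 (-0.25 to 0.16) and Notch3 (-0.36 to 0.068). The cause of these changes was not tested. The labels carry no replicate numbers to pair arrays by; the time effect pairs the times within each treatment, and the values without that block are given above.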

Other observations

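Some pathway genes that no outcome test called, or that failed the filter, had a wild-type array at 24 h apart from both others; they were picked after their values were seen. Ccnd1, which encodes cyclin D1, gave 531.8 on the wild-type array, against 280.3 (doxycycline) and 207.0 (mutant), which is a difference of 1.14 on the log2 scale (limma adjusted p = 0.063), and a second probe set read 218.0, 95.6 and 105.7. Mfap5 read 452.7, 161.1 and 112.7, a difference of 1.75 (adjusted p = 0.103). Kat2a, an acetyltransferase, read 42.2, 116.9 and 145.4, a difference of -1.63 (adjusted p = 0.0705), while its arrays at 0 h read 97.7, 110.4 and 120.0. For Ccnd1 and Mfap5 the wild-type array was already the highest at 0 h. Ccnd1 then read 644.3, 445.3 and 442.3, and Mfap5 read 158.6, 108.7 and 59.9. Adam12, a protease that failed the filter, read 8.5 at 24 h, under the floor, against 29.9 and 39.1. Myc, a Notch target in other tissues that failed the filter, read 93.1, 48.1 and 53.0 at 24 h against 94.1, 78.3 and 77.3 at 0 h.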
